A study of Homo sapiens with 8 samples.

Results

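Interferon-stimulated effector genes encode the proteins with which a cell that has sensed interferon blocks viral replication, and 44 of them were followed here in melanoma cells that received constructs of the long noncoding RNA SLNCR1. The genes were chosen by name, with earlier results of these data known. Each had to be listed in all 3 deposited tables, which hold 56638 entries, and its vector mean in the table for full-length SLNCR1 had to reach 10. Shares of members set beside those of all genes are therefore descriptions and not tests of an unselected list. All 44 listed genes passed, and the lowest vector mean was 34.6 (EPSTI1, in the authors' deposited table). Type I and type III interferons bind receptors at the cell surface and activate the JAK kinases, which lead to assembly of the factor ISGF3. This factor binds the interferon-stimulated response element in the promoters of its targets. Many of the targets also respond directly to interferon regulatory factors, and tumour cells can express them without added interferon.

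RNA was measured by sequencing of poly(A)-selected libraries from A375, an established human malignant melanoma line that carries an activating BRAF mutation. All cells were kept in DMEM with 10% serum, were transfected 24 h after seeding by use of Lipofectamine 2000, and were lysed 48 h later, so the vector controls also carried plasmid DNA and transfection reagent. The 4 groups of 2 libraries received pcDNA3.1(-) without insert (vector), the same plasmid with SLNCR1 at full length, with its conserved region alone (conserved), or with SLNCR1 lacking that region (delta-conserved). The comparisons ask whether the RNA changes expression and which segment is needed. Cells without transfection were not analysed here, all libraries come from a single cell line, and the constructs act in transiently transfected cells. Whether each library stands for a culture of its own is not given in the labels, so p-values measure only the spread between these libraries, which may be technical.

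Between 8222868 and 12015394 reads per library were assigned to genes (for the conserved region without 6 genes whose reads had more than 1 solution). Within each group, the library with more reads is called a and the other b, and values are given in that order. LINC00511, the annotated gene that holds SLNCR1, differed from vector in the authors' deposited tables by a log2 fold change of 0.49 with full-length SLNCR1 (DESeq adjusted p = 0.00559), 0.80 with the conserved region (adjusted p = 5.89e-15) and 0.69 with delta-conserved (adjusted p = 0.145). Of the melanocytic markers, SOX10 was at 2939 to 3704 normalized counts, while TYR and DCT were below 10 in every library. Of 10 leukocyte markers, 5 were below 10 normalized counts in every library, PTPRC and CD3E among them, and ITGAX, ITGAM, LYZ, CSF1R and CD14 were not.

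The promoters of the 44 genes were compared first, because the genes moved together. RefSeq windows (GRCh38.p14, 250 bases before to 50 bases after the start of transcription) were at hand for 36 members. The core of the interferon-stimulated response element, GAAA followed by any 2 bases and a second GAAA, was searched on both strands, overlaps included. It was found in 27 of these 36 members (75.0%) and in 3.57% of all 35116 windows. Of the 10398 genes tested below that have a window, 4.0% held it. Members without a match in any of their windows were CMPK2, HERC6, IFI35, OAS1, SAMD9L, SP110, TRIM25, UBE2L6 and XAF1. IFIT2, IFITM2, MX2, OAS2, OASL, PARP10, TRIM22 and USP18 had no window. A match describes these letters and is not a measured binding site. The 250 bases before the start are shown, 5′ to 3′ on the strand of the gene, for the 4 members with the lowest adjusted p in the authors' deposited tables among those with a match, and for XAF1, which had the lowest among those without. Capitals mark the match, in either orientation. The stretches are chr2:6877527-6877776 (plus strand) for RSAD2, chr17:78979924-78980173 (minus) for LGALS3BP, chr4:168480493-168480742 (minus) for DDX60L, chr1:78620198-78620447 (plus) for IFI44L and chr17:6755796-6756045 (plus) for XAF1.
RSAD2: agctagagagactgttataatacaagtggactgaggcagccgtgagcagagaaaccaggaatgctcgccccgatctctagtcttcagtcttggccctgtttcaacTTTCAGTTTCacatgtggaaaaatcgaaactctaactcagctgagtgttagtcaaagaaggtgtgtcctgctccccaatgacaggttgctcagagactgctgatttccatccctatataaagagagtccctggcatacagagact
LGALS3BP: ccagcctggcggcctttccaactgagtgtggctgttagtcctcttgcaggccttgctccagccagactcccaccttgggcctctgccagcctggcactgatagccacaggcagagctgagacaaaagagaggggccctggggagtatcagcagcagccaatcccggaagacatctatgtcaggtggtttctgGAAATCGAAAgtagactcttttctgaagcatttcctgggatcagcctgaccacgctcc
DDX60L: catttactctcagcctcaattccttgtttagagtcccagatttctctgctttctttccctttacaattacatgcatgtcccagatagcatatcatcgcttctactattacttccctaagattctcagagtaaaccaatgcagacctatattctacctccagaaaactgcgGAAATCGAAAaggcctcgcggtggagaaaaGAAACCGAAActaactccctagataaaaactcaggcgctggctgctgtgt
IFI44L: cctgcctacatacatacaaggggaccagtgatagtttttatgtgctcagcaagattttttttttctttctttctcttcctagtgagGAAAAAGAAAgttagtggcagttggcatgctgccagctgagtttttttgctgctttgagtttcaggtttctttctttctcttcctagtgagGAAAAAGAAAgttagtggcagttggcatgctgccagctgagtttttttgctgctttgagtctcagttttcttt
XAF1: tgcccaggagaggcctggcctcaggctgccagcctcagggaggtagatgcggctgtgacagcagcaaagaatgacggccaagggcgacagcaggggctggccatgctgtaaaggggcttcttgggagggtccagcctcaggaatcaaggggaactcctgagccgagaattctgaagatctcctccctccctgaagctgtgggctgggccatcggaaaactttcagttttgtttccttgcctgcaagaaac

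In DDX60L the matches began 80 and 50 bases before the start, in RSAD2 145 bases before it on the opposite strand, and in IFI44L 164 and 73 bases before it. LGALS3BP, which moved against most members, held its match 58 bases before the start. Shorter stretches are shown for some members whose levels differed between constructs. Both GAAA runs occur in each because the search required them, so the stretches do not measure likeness. Members that passed no test, such as ISG20 and IFI6, held matches too. Each is read in the direction of the motif, with 6 flanking bases in lower case on either side.
IFIT3, 51 bases before the start: ggaaagGAAAGTGAAActgatg
MX1, 196 bases before the start: ttcacgGAAAGAGAAAcagagt
OAS3, 12 bases before the start: gggcggGAAAACGAAAccagaa
ISG15, 107 bases before the start: gaaaggGAAACCGAAActgaag
DDX60, 53 bases before the start: agaaagGAAACCGAAActcccg
SAMD9, 136 bases before the start: agaaatGAAACTGAAAccaaac
The median log2 difference between the conserved region and delta-conserved was 0.60 over the 27 members with the motif and 0.76 over the 9 without it.

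The conserved region alone gave the highest levels of most of these genes, and the constructs with the rest of SLNCR1 gave the lowest. Group means stood in the order conserved, vector, SLNCR1, delta-conserved for 30 of the 44 members, and for 6 more only SLNCR1 and delta-conserved changed places. The share of all genes in these orders is not given here, so these counts cannot be read as particular to the members. Both conserved-region libraries lay above all other 6 libraries for 36 members, against 9.06% of all 16064 genes tested. The 8 remaining members were ISG20, UBE2L6, IFITM2, IFITM3, PARP10, IFI6, IFI35 and LGALS3BP. In bulk RNA, fewer cells that express a gene and less RNA per cell cannot be told apart.

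**Figure D1:**
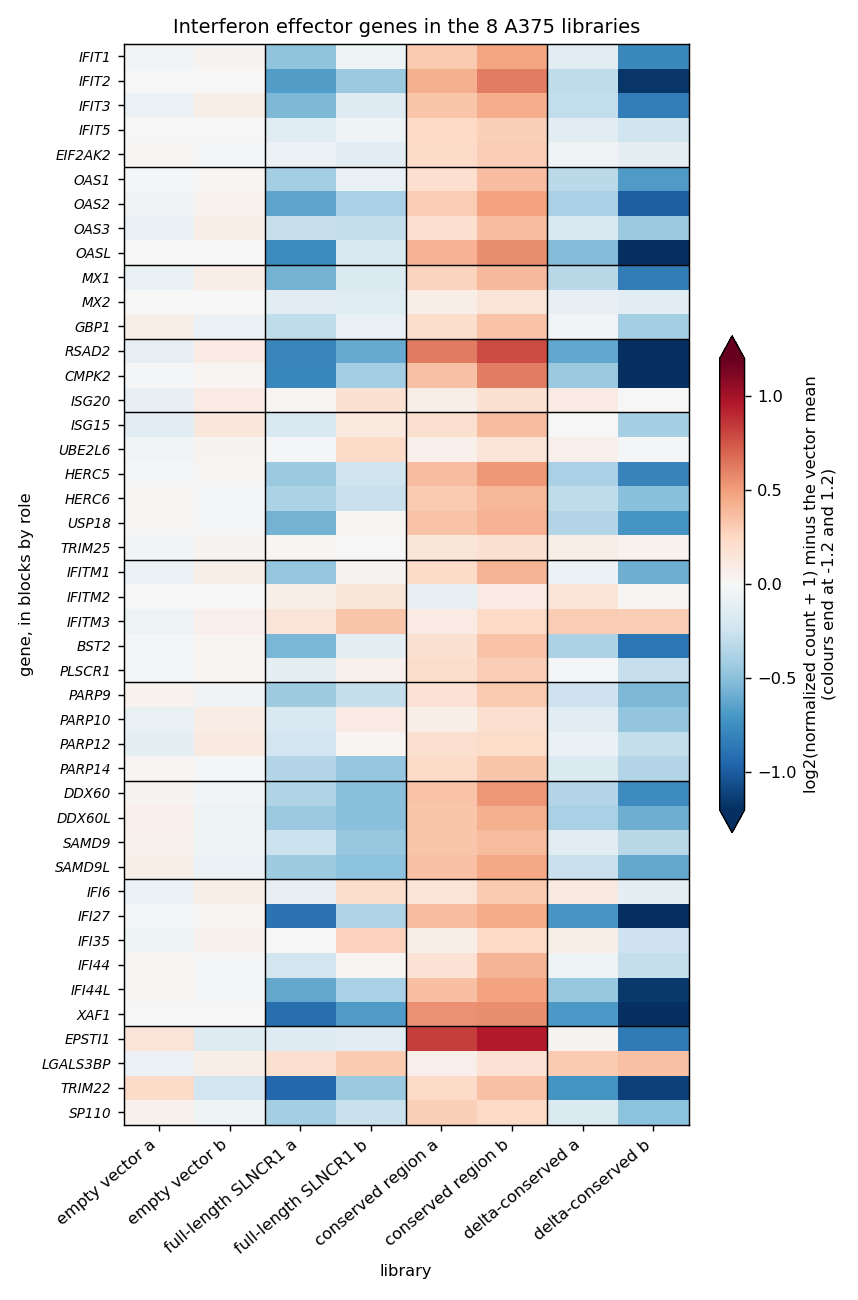
Level of each of the 44 genes (rows, in blocks by role) in each of the 8 libraries (columns), as log2(normalized count + 1) minus the mean of the vector libraries. Red is above and blue below vector, and 5 values lie past the ends of the colour scale, down to -1.56. The conserved-region columns are red for nearly all genes, and the SLNCR1 and delta-conserved columns are mostly blue, with delta-conserved b the lowest.

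With the conserved region, 5 members rose against vector in the authors' deposited table (DESeq adjusted p under 0.05): IFIT2, OASL, RSAD2, SAMD9 and IFI44L. None fell, and 0.0175% of all genes with a p-value there rose. These 5 were among 6 genes called in that table, and LINC00511 was the sixth. The median log2 fold change of the 44 members was 0.27 in the authors' deposited table and that of all genes -0.0013. IFITM2, at -0.01, was the only member below 0 there. At an unadjusted p under 0.05, 32 were higher and none lower in the authors' deposited table, where 0.725% of all genes were higher and 0.614% lower. In the limma fit over all 8 libraries none of the 44 passed (Benjamini-Hochberg adjusted p), as against 0.00623% of all genes that were higher, while 33 were higher and none lower at an unadjusted p under 0.05, against 3.0% and 2.45% of all genes. When limma was fitted to the vector and conserved-region libraries alone, 15 members passed. The share of all genes that passed in that fit is not given here, so this count cannot be read as particular to the members. Both conserved-region libraries were above both vector libraries for 40 members and below them for none, against 25.0% and 16.6% of all genes. The median log2 difference of the members was 0.29 in limma and that of all genes 0.02, and all 44 members lay above 0, against 55.7% of all genes. The limma differences ran from 0.0005 for IFITM2 to 0.89 for EPSTI1.

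With full-length SLNCR1 most members lay below vector. By the authors' deposited table, members that fell were 9 in number: IFIT2, OAS2, RSAD2, CMPK2, PARP14, DDX60L, SAMD9L, IFI44L and XAF1, and none rose. Over all genes of that table, 0.844% fell and 0.0388% rose. The median log2 fold change of the members was -0.26 in the authors' deposited table and that of all genes -0.0036. By limma 15 fell and LGALS3BP rose, against 7.4% and 3.97% of all genes. Fewer members passed limma when either vector library was left out, and more passed without SLNCR1 library b. Both SLNCR1 libraries were below both vector libraries for 28 members and above them for 3, where the shares over all genes were 25.4% and 27.2%.

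With delta-conserved, 7 members fell in the authors' deposited table (RSAD2, HERC5, HERC6, USP18, DDX60L, IFI27 and XAF1) and LGALS3BP rose. Over all genes of that table, the shares that fell and rose were 1.14% and 1.11%. The median log2 fold change of the members was -0.35 in the authors' deposited table and that of all genes -0.0112. By limma 23 fell and 2 rose (IFITM3 and LGALS3BP), against 5.24% and 5.18% of all genes. Fewer members passed limma when vector library a, vector library b or delta-conserved library b was left out. Both delta-conserved libraries were below both vector libraries for 32 members and above them for 4, where the shares over all genes were 26.0% and 27.7%. The 3 comparisons with vector share the vector libraries, so their values are given side by side and are not independent of each other.

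**Figure D2:**
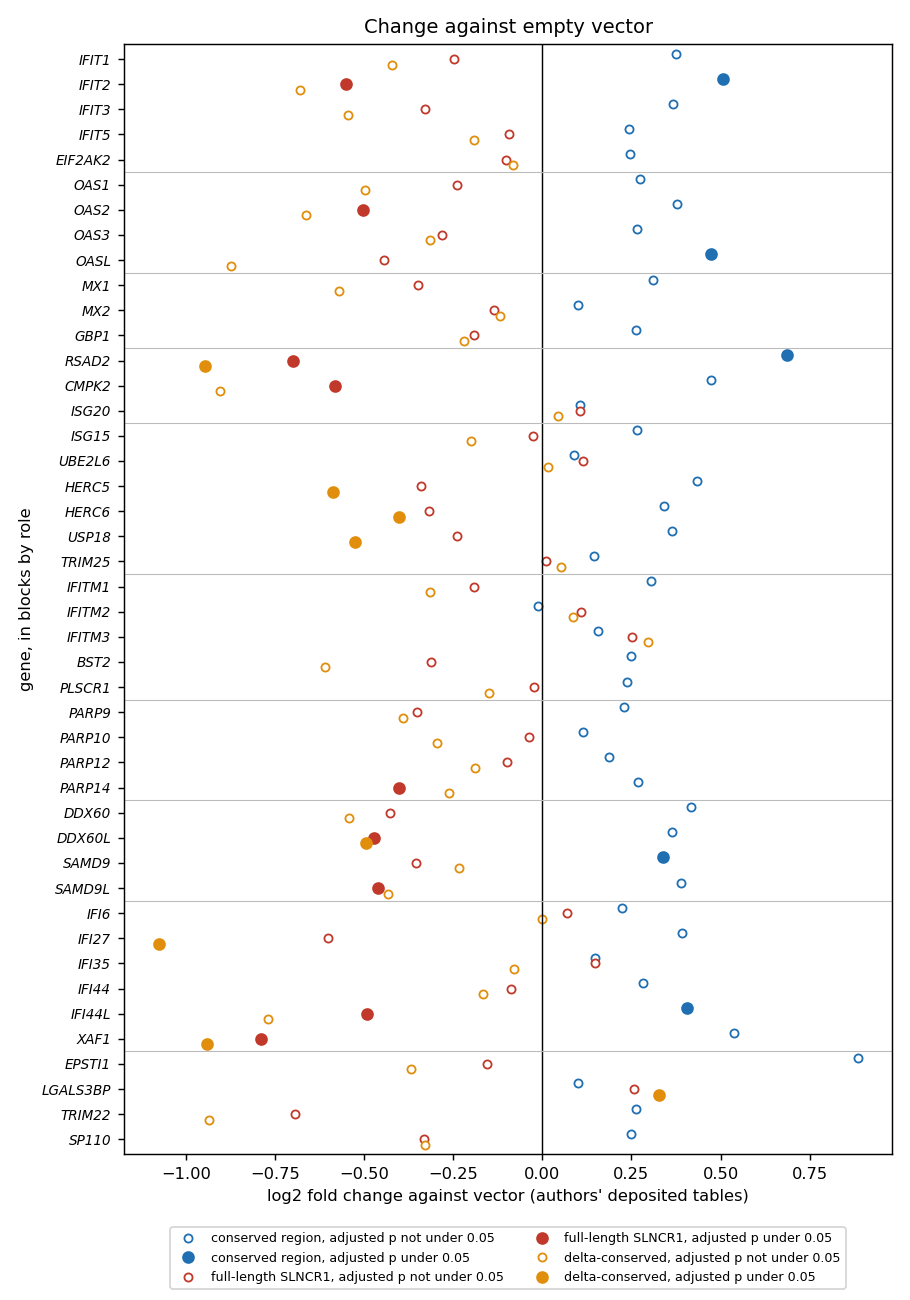
Log2 fold change of each gene against vector in the authors' deposited tables for the conserved region (blue), full-length SLNCR1 (red) and delta-conserved (orange). Filled points passed the authors' adjusted p of 0.05, 5 for the conserved region, 9 for SLNCR1 and 8 for delta-conserved, and the conserved-region points lie to the right of 0 except for IFITM2.

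The conserved region was then compared with the other constructs. The vector libraries do not enter these differences of means. They do enter the scaling and the estimate of spread, since limma was fitted to all 8 libraries. Between the conserved region and delta-conserved, 36 members were higher with the conserved region by limma and none lower (Benjamini-Hochberg adjusted p under 0.05), against 5.78% and 1.12% of all genes. The median log2 difference was 0.64, that of all genes -0.01, and the members ran from -0.22 for LGALS3BP to 1.68 for RSAD2. Both conserved-region libraries were above both delta-conserved libraries for 39 members and below them for 2, against 28.5% and 28.9% of all genes. Between full-length SLNCR1 and the conserved region, 34 members were lower with SLNCR1 and none higher, against 9.45% and 2.05% of all genes, with a median of -0.60 (all genes 0.0089). For 36 members both SLNCR1 libraries were below both conserved-region libraries, and for 1 above, where the shares over all genes were 27.9% and 29.3%. The number of members called by limma in both comparisons changed when single libraries were left out.

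Between full-length SLNCR1 and delta-conserved, no member passed limma after adjustment. At an unadjusted p under 0.05, 6 members were higher with SLNCR1 (OAS1, OASL, PARP10, IFI27, IFI35 and IFI44L) and none lower, against 2.59% and 5.4% of all genes. The median log2 difference was 0.12, that of all genes -0.0031, and 35 of 44 members lay above 0, against 49.1% of all genes. In no member were both SLNCR1 libraries above both delta-conserved libraries, and in 2 they were below, against 16.3% and 16.9% of all genes. The median turned to -0.05 without delta-conserved library b. Some members passed limma without SLNCR1 library a, in a fit whose share of all genes called is not given here. These values do not show that these constructs act alike.

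**Figure D3:**
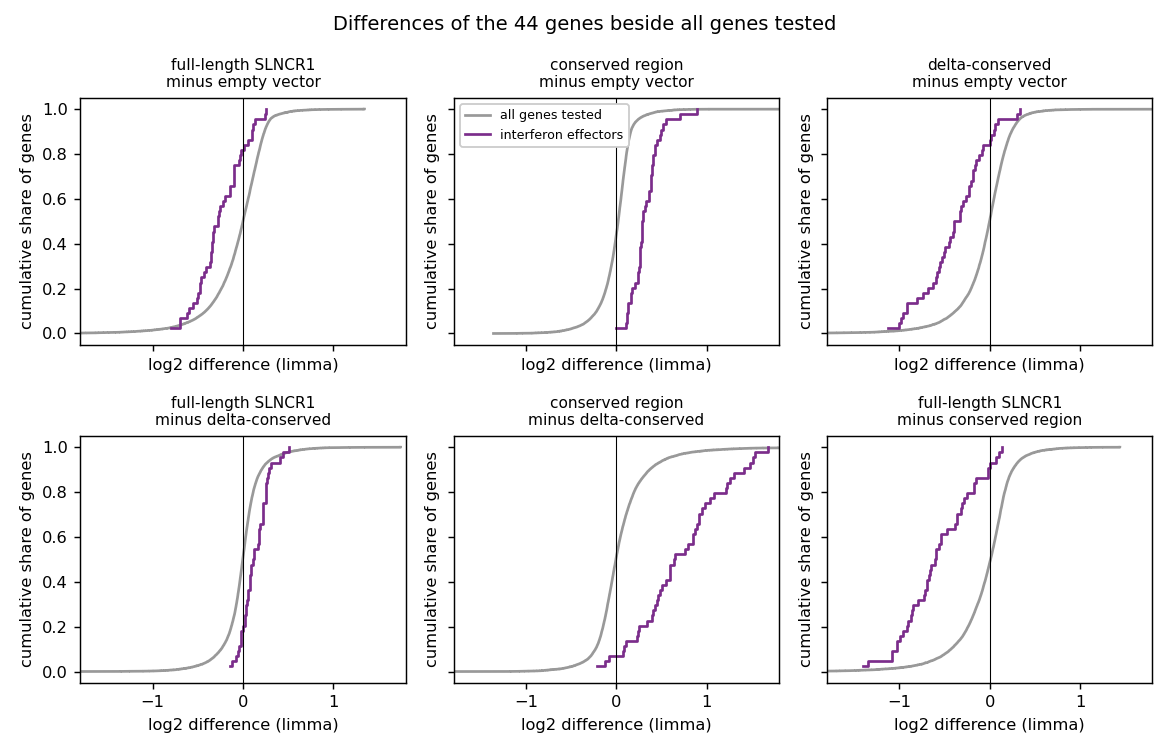
Cumulative share of genes (vertical axis, 0 to 1) at or below each log2 difference from limma (horizontal axis) for the 44 genes (purple) and all 16064 genes tested (grey), with 1 panel for each of 6 comparisons. The purple line lies right of the grey line for the conserved region minus vector and minus delta-conserved, with member medians of 0.29 and 0.64, and left of it for SLNCR1 minus the conserved region, with a median of -0.60.

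Of the 4 IFIT genes, whose proteins bind viral RNA and restrict its translation, and EIF2AK2, IFIT2 had the largest difference between the conserved region and delta-conserved. IFIT2 was at 499.6 and 500.1 normalized counts with vector, 313 and 368 in the SLNCR1 group, 672 and 764 in that of the conserved region and 404 and 222 under delta-conserved. Both conserved-region libraries were above, and the other construct libraries below, both vector libraries. In the authors' deposited tables IFIT2 rose with the conserved region (log2 fold change 0.51, adjusted p = 0.0320) and fell with SLNCR1 (-0.55, adjusted p = 0.00707), and with delta-conserved it was at -0.68 (adjusted p = 0.620). The log2 difference between the conserved region and delta-conserved was 1.25 ± 0.17 (SE, limma, Benjamini-Hochberg adjusted p = 0.000130). IFIT3 was at 1195 and 1325 with vector, 868 and 1132 in the SLNCR1 group, 1582 and 1706 in that of the conserved region and 1027 and 706 under delta-conserved. Its difference between the conserved region and delta-conserved was 0.95 ± 0.13 (SE, limma, adjusted p = 0.000155). IFIT1, IFIT5 and EIF2AK2, which encodes the RNA-activated kinase PKR, were also higher with the conserved region than with delta-conserved by limma, by 0.84, 0.45 and 0.34 on the log2 scale. All 5 genes of this group were lower with SLNCR1 than with the conserved region by limma.

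The oligoadenylate synthetases make the messenger that activates RNase L, and OASL is a family member without that activity that acts on RIG-I. OASL was at 523.9 and 518.8 normalized counts with vector, 306 and 458 in the SLNCR1 group, 698 and 767 in that of the conserved region and 363 and 208 under delta-conserved. The groups did not overlap except SLNCR1 and delta-conserved. OASL rose with the conserved region in the authors' deposited table (log2 fold change 0.47, adjusted p = 0.0150). Between the conserved region and delta-conserved its log2 difference was 1.41 ± 0.19 (SE, limma, adjusted p = 8.45e-05). OAS2 was at 1596 and 1694 with vector, 1059 and 1258 in the SLNCR1 group, 2030 and 2292 in that of the conserved region and 1254 and 830 under delta-conserved. OAS2 fell with SLNCR1 in the authors' deposited table (-0.50, adjusted p = 0.00414) and was at -0.66 with delta-conserved (adjusted p = 0.174). The conserved region exceeded delta-conserved by 1.08 ± 0.13 in OAS2, 0.79 ± 0.11 in OAS1 and 0.60 ± 0.09 in OAS3 (log2 differences with SE, limma, adjusted p = 2.94e-05, 0.000114 and 0.000220). OAS1 was at 1011 and 1033 with vector, 771 and 958 in the SLNCR1 group, 1179 and 1320 in that of the conserved region and 816 and 638 under delta-conserved. OAS3 was at 4017 and 4475 with vector, 3501 and 3476 in the SLNCR1 group, 4848 and 5470 in that of the conserved region and 3720 and 3118 under delta-conserved, and the delta-conserved libraries lay on both sides of the SLNCR1 libraries.

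**Figure D4:**
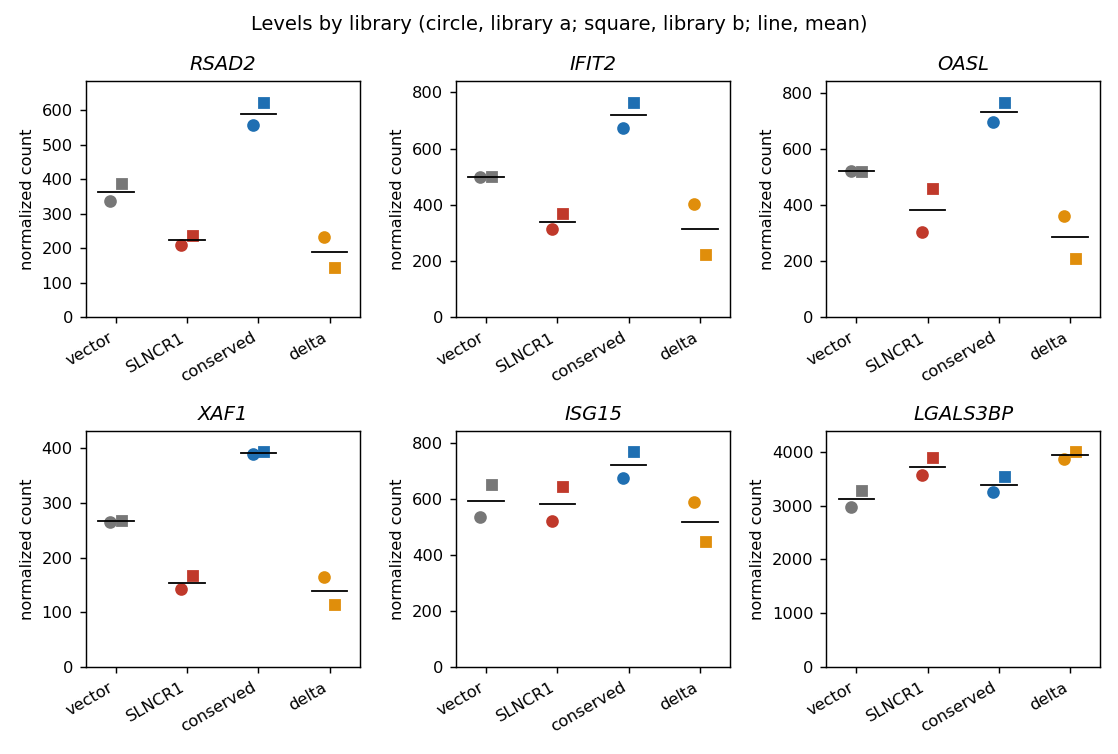
Normalized counts (vertical axes from 0) of 6 genes in each library, by group, with circles for library a, squares for library b and a line at the group mean. RSAD2, IFIT2, OASL and XAF1 are highest with the conserved region, at 390.2 and 393 for XAF1 against 266 and 267 with vector, while ISG15 differs less and LGALS3BP is highest with delta-conserved, at 3869 and 3991.

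RSAD2, which encodes viperin, an enzyme that makes a chain-terminating nucleotide, had the largest differences of the list between the conserved region and both other constructs. It was at 338 and 386 normalized counts with vector, 208 and 236 in the SLNCR1 group, 556 and 622 in that of the conserved region and 234 and 143 under delta-conserved. The SLNCR1 and delta-conserved libraries overlapped each other and were below both vector libraries. RSAD2 was the member called in all 3 of the authors' deposited tables, with log2 fold changes of -0.70 for SLNCR1 (adjusted p = 0.00112), 0.69 for the conserved region (adjusted p = 0.000389) and -0.95 for delta-conserved (adjusted p = 0.0428). By limma it was higher with the conserved region than with delta-conserved by 1.68 ± 0.16 (log2 difference with SE, adjusted p = 1.78e-06), and lower with SLNCR1 than with the conserved region (-1.40 ± 0.16, adjusted p = 1.27e-05). CMPK2, a mitochondrial nucleotide kinase whose exons overlap those of RSAD2 on the opposite strand, was at 338 and 351 with vector, 199 and 259 in the SLNCR1 group, 439 and 527 in that of the conserved region and 253 and 116 under delta-conserved. The library kit does not mark strand, so reads from the shared stretch of RSAD2 and CMPK2 cannot be told apart. Exons of IFIT2, EIF2AK2, OAS1, MX1, ISG15, TRIM25, IFITM3, PARP9, PARP10, XAF1 and SP110 also overlap other genes on the opposite strand. The same limit applies to them. CMPK2 fell with SLNCR1 in the authors' deposited table (log2 fold change -0.58, adjusted p = 0.0338). ISG20, an exonuclease, was at 679 to 827 in all 8 libraries and passed no test.

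Of the interferon-induced GTPases, MX1, which blocks viral nucleocapsids, was at 1564 and 1748 normalized counts with vector, 1117 and 1477 in the SLNCR1 group, 1990 and 2167 in that of the conserved region and 1315 and 922 under delta-conserved. Its log2 difference between the conserved region and delta-conserved was 0.91 ± 0.13 (SE, limma, adjusted p = 0.000198). MX2 and GBP1 differed less, by 0.23 and 0.50, and both passed limma in that comparison and between SLNCR1 and the conserved region. None of the 3 passed in the authors' deposited tables.

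ISG15 is a ubiquitin-like protein, UBE2L6 and HERC5 attach it to targets, and USP18 removes it and restrains interferon signalling. HERC5 was at 215 and 219 normalized counts with vector, 159 and 183 in the SLNCR1 group, 282 and 311 in that of the conserved region and 166 and 124 under delta-conserved. HERC6, its neighbour on chromosome 4, was at 577 and 566 with vector, 440 and 475 in the SLNCR1 group, 709 and 754 in that of the conserved region and 463 and 404 under delta-conserved. In both genes the conserved-region libraries were the highest and all SLNCR1 and delta-conserved libraries were below vector. HERC5, HERC6 and USP18 fell under delta-conserved in the authors' deposited table (log2 fold changes -0.59, -0.40 and -0.53, adjusted p = 0.0411, 0.0251 and 0.0322). The conserved region exceeded delta-conserved by 1.04 ± 0.13 in HERC5, 0.76 ± 0.08 in HERC6 and 0.91 ± 0.15 in USP18 (log2 differences with SE, limma, adjusted p = 7.08e-05, 1.39e-05 and 0.000584). ISG15 itself was at 536 and 649 with vector, 520 and 641 in the SLNCR1 group, 674 and 766 in that of the conserved region and 588 and 447 under delta-conserved, so that SLNCR1 and vector overlapped. Only the comparison of the conserved region with delta-conserved passed for ISG15 by limma (0.49 ± 0.12, adjusted p = 0.0214). UBE2L6 and TRIM25 passed no test, and their log2 differences between the conserved region and delta-conserved were 0.09 and 0.10.

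The membrane proteins were split. BST2, which tethers budding virus, IFITM1 and PLSCR1 were higher with the conserved region than with delta-conserved (log2 differences 0.89, 0.65 and 0.41, limma, adjusted p = 0.000635, 0.0230 and 0.00499). IFITM2 and IFITM3, which block viral entry, were at -0.09 and -0.13 there and did not pass. IFITM3 was at 632 and 687 normalized counts with vector, 733 and 832 in the SLNCR1 group, 707 and 778 in that of the conserved region and 813 and 809.5 under delta-conserved, so vector was lowest. By limma IFITM3 rose with delta-conserved (0.30 ± 0.08, SE, adjusted p = 0.0244). IFITM1, IFITM2 and IFITM3 lie within 100 kb of each other and are close copies, and exons of IFITM1 and IFITM2 overlap on the same strand, so reads may have been split among them.

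The ADP-ribosyltransferases PARP9, PARP10, PARP12 and PARP14 were all higher with the conserved region than with delta-conserved by limma, by 0.64, 0.43, 0.39 and 0.54 on the log2 scale. PARP14 was at 2560 and 2494 normalized counts with vector, 1984 and 1832 in the SLNCR1 group, 2970 and 3185 in that of the conserved region and 2250 and 1978 under delta-conserved. PARP14 fell with SLNCR1 in the authors' deposited table (log2 fold change -0.40, adjusted p = 0.00988). It was lower with SLNCR1 than with the conserved region (log2 difference -0.69 ± 0.07, SE, limma, adjusted p = 7.95e-06). PARP9, whose exons overlap DTX3L, was at 1415 and 1340 with vector, 1025 and 1131 in the SLNCR1 group, 1548 and 1717 in that of the conserved region and 1161 and 946 under delta-conserved.

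All 4 genes of the helicase pair DDX60 and DDX60L and the pair SAMD9 and SAMD9L, whose proteins restrict viral replication, were highest with the conserved region. DDX60L was at 679 and 624 normalized counts with vector, 477 and 460.3 in the SLNCR1 group, 820 and 878 in that of the conserved region and 496 and 432 under delta-conserved. It fell under both SLNCR1 and delta-conserved in the authors' deposited tables (log2 fold changes -0.47 and -0.49, adjusted p = 0.0228 and 0.00221). DDX60 was at 645 and 615 with vector, 490.1 and 445 in the SLNCR1 group, 797 and 902 in that of the conserved region and 494 and 374 under delta-conserved. SAMD9L was at 896 and 810.2 with vector, 632 and 606 in the SLNCR1 group, 1087 and 1174 in that of the conserved region and 709.9 and 557 under delta-conserved, and it fell with SLNCR1 in the authors' deposited table (-0.46, adjusted p = 0.0143). SAMD9 was at 1360 and 1273 with vector, 1097 and 960 in the SLNCR1 group, 1653 and 1716 in that of the conserved region and 1198 and 1046 under delta-conserved. SAMD9 rose with the conserved region in the authors' deposited table (0.34, adjusted p = 0.0351). The conserved region exceeded delta-conserved by 0.98 ± 0.11, 0.87 ± 0.08, 0.59 ± 0.08 and 0.84 ± 0.10 in DDX60, DDX60L, SAMD9 and SAMD9L (log2 differences with SE, limma, adjusted p = 1.02e-05, 2.66e-06, 0.000130 and 1.50e-05). The SLNCR1 and delta-conserved groups overlapped in all 4 genes.

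XAF1, a promoter of apoptosis that binds the inhibitor XIAP, had the lowest adjusted p of the list, both in the authors' deposited tables and in limma between the conserved region and delta-conserved. It was at 266 and 267 normalized counts with vector, 142 and 166 in the SLNCR1 group, 390.2 and 393 in that of the conserved region and 165 and 114 under delta-conserved. Vector and conserved-region libraries agreed closely within each group, and SLNCR1 and delta-conserved overlapped each other. XAF1 fell under both SLNCR1 and delta-conserved in the authors' deposited tables (log2 fold changes -0.79 and -0.94, adjusted p = 0.000898 and 0.000214), and was at 0.54 with the conserved region (adjusted p = 0.0695). Between the conserved region and delta-conserved its log2 difference was 1.51 ± 0.14 (SE, limma, adjusted p = 1.74e-06). IFI27, a mitochondrial protein, was at 257 and 261 with vector, 139.9 and 201 in the SLNCR1 group, 336 and 352 in that of the conserved region and 159 and 87.1 under delta-conserved, and fell under delta-conserved in the authors' deposited table (-1.08, adjusted p = 0.0148). IFI44L was at 795 and 767 with vector, 511 and 597 in the SLNCR1 group, 1004 and 1091 in that of the conserved region and 569.7 and 349.8 under delta-conserved. It rose with the conserved region and fell with SLNCR1 in the authors' deposited tables (0.41 and -0.49, adjusted p = 0.0216 and 0.00651). The conserved region exceeded delta-conserved by 1.54 ± 0.20 in IFI27 and 1.23 ± 0.14 in IFI44L (log2 differences with SE, limma, adjusted p = 7.48e-05 and 2.24e-05). IFI6 and IFI35 passed no test, at 0.24 and 0.25 in that comparison.

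LGALS3BP, a secreted glycoprotein that binds galectins, departed from the list. It was at 2980 and 3269 normalized counts with vector, 3569 and 3881 in the SLNCR1 group, 3248 and 3521 in that of the conserved region and 3869 and 3991 under delta-conserved. Both SLNCR1 and both delta-conserved libraries were above vector, and the conserved region overlapped vector. It rose under delta-conserved in the authors' deposited table (log2 fold change 0.33, adjusted p = 0.000602), where full-length SLNCR1 was at 0.26 (adjusted p = 0.352). EPSTI1, the member with the lowest counts, was at 36.4 and 29.3 with vector, 29.2 and 29.8 in the SLNCR1 group, 58.8 and 64.0 in that of the conserved region and 33.4 and 17.7 under delta-conserved. It was higher with the conserved region than with delta-conserved (log2 difference 1.30 ± 0.28, SE, limma, adjusted p = 0.00657). TRIM22, an antiviral ubiquitin ligase, and SP110, a nuclear body protein, were higher in the same comparison by 1.21 and 0.60 (limma, adjusted p = 0.000383 and 0.000635).

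Within groups the members moved together as well. In delta-conserved, library a was above library b for 43 of 44 members, with a median log2 difference of b minus a of -0.35 and an extreme of -1.11 in CMPK2. With the conserved region, a was above b for 1 member, with SLNCR1 for 9 and with vector for 19, where the shares over all genes tested lay between 45.8% and 48.4% in the 4 groups. Relative to the vector mean, the median log2 level of the members was -0.37 and -0.14 in SLNCR1 a and b, 0.23 and 0.37 in conserved a and b, and -0.17 and -0.52 in delta-conserved a and b. The lowest value of 34 members was in delta-conserved b and the highest of 37 in conserved b. Shares over all genes are not given here for these 2 counts, so they cannot be read as particular to the members. All 4 SLNCR1 and delta-conserved libraries had medians below vector and both conserved-region libraries had medians above it.

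Pairs of comparisons that share no library could be set against each other. Across the 44 members, the log2 difference of SLNCR1 from vector and that of the conserved region from delta-conserved had a Pearson correlation of -0.91 (Spearman -0.89), against -0.60 (Spearman -0.53) across all 16064 genes tested. The difference of delta-conserved from vector and that of SLNCR1 from the conserved region had 0.91 (Spearman 0.92) across members and 0.55 (Spearman 0.43) across all genes. For the conserved region against vector and SLNCR1 against delta-conserved it was 0.48 (Spearman 0.54) across members and -0.07 (Spearman -0.15) across all genes. These describe the genes and are not tests, since genes are not independent replicates and all values share 1 normalization.

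**Figure D5:**
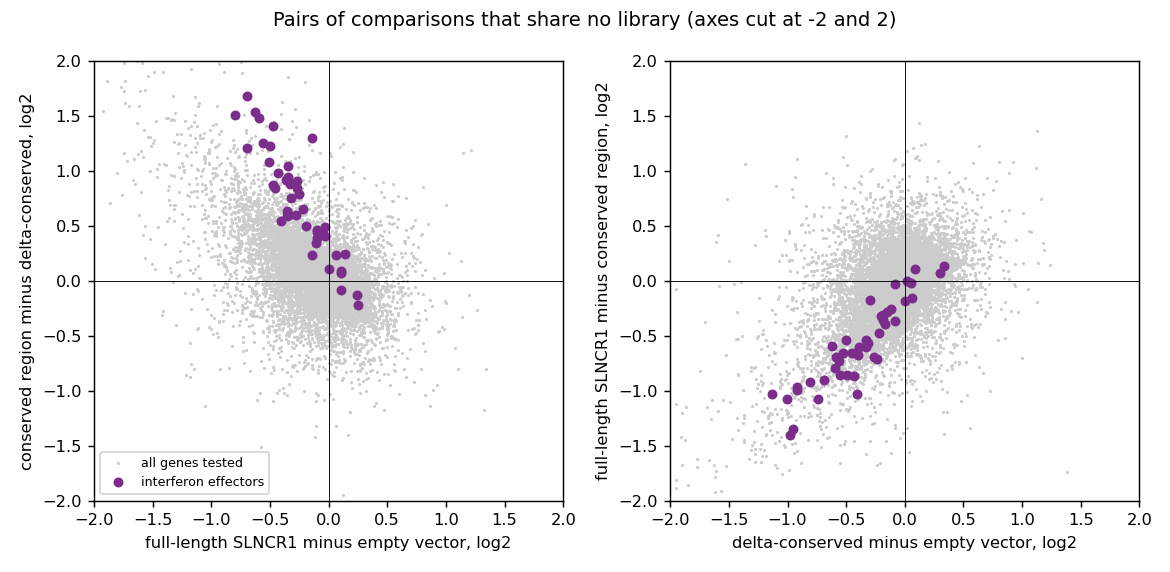
Log2 differences from limma in pairs of comparisons without a common library, for the 44 genes (purple) and all genes tested (grey, with 38 and 40 genes outside the axes, which end at -2 and 2). Left, SLNCR1 minus vector against the conserved region minus delta-conserved, where members fall along a line from upper left to lower right (r = -0.91). Right, delta-conserved minus vector against SLNCR1 minus the conserved region, where they fall along a rising line (r = 0.91).

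Upstream of the effectors, the interferon genes themselves had few reads. IFNB1 had 31 reads in all 8 libraries together, IFNA1 29, IFNL2 20 and IFNL3 10, IFNK had none in any library, and IFNE had 193. IFNL1, a type III interferon, had 15 and 14 reads with vector, 3 and 3 in the SLNCR1 group, 15 and 16 in that of the conserved region and 5 and 6 under delta-conserved, and did not pass in the authors' deposited table (SLNCR1 adjusted p = 0.605). Of 45 genes of interferon production and signalling, 44 had a p-value in the authors' deposited tables. By adjusted p, 2 of them fell with SLNCR1 (0.844% of all genes) and 4 fell with delta-conserved (1.14% of all genes). None changed with the conserved region by adjusted p, and 5 were higher at an unadjusted p under 0.05 (0.725% of all genes). Of the 37 tested by limma, 10 were higher and none lower with the conserved region than with delta-conserved, against 5.78% and 1.12% of all genes. With SLNCR1, 11 were lower and 1 higher than with the conserved region, against 9.45% and 2.05% of all genes.

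The largest differences among the genes named by the rule for this list were in RNA sensors. DDX58, which encodes RIG-I, was at 1117 and 1065 normalized counts with vector, 709 and 822 in the SLNCR1 group, 1434 and 1618 in that of the conserved region and 813 and 509 under delta-conserved. DDX58 and IFIH1, which encodes MDA5, fell with SLNCR1 in the authors' deposited table (log2 fold changes -0.51 and -0.56, adjusted p = 0.00126 and 0.0325). IRF1, a transcription factor that acts on these promoters, was at 701 and 713 with vector, 488 and 574 in the SLNCR1 group, 795 and 843 in that of the conserved region and 507 and 449.6 under delta-conserved. IRF1, DHX58 (LGP2) and the kinase IKBKE fell under delta-conserved in the authors' deposited table (-0.57, -0.66 and -0.53, adjusted p = 4.26e-05, 0.0428 and 0.000305). TICAM1, named after its values were seen to complete the 4, also fell there. Antigen presentation, another interferon output, was mixed. Of its 20 genes 3 rose (B2M, HLA-DRA and CD74) and 1 fell (NLRC5) under delta-conserved in the authors' deposited table, against 1.11% and 1.14% of all genes. They are named because they are few and, except CD74, after their values were seen. Between the conserved region and delta-conserved 3 of the 20 were higher by limma and 2 lower, against 5.78% and 1.12% of all genes, among them TAP1 (0.47, adjusted p = 0.00208) and CD74 (-0.28, adjusted p = 0.0246). Whether that list differs from the effectors was not tested.

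Some properties of the genes moved with the values. The 10 members with an exon length (exons of all annotated transcripts merged) under 2200 bases had a median log2 difference between SLNCR1 and vector of 0.01 and the 34 longer ones -0.34, where short and long genes overall were at 0.10 and -0.01. Between the conserved region and delta-conserved the short members were at 0.35 and the long at 0.82, and all short and long genes at -0.06 and -0.001. Across the 44 members, GC content of the longest transcript had a Pearson correlation with the log2 difference of 0.52 for SLNCR1 against vector, 0.56 for SLNCR1 against the conserved region and -0.41 for the conserved region against delta-conserved, where all genes were at 0.14, 0.30 and -0.16. The logarithm of exon length had -0.39, -0.32 and 0.20 across members and -0.15, -0.16 and 0.05 across all genes. For the conserved region against vector, GC content had -0.49 across members and -0.32 across all genes. It had 0.34 and -0.02 for delta-conserved against vector, and 0.13 and 0.23 for SLNCR1 against delta-conserved. These describe genes of the same libraries and are not tests. With trends on length and GC content removed from every library, the number of members called by limma stayed within 1.5 times that of the main fit. The share of all genes called after this removal is not given here, so the number is not set against it. Members of gene clusters (IFIT1, IFIT2, IFIT3 and IFIT5 on chromosome 10, OAS1 to OAS3 on chromosome 12, MX1 and MX2 on chromosome 21, and the pairs HERC5 and HERC6, DDX60 and DDX60L on chromosome 4, SAMD9 and SAMD9L on chromosome 7, and IFI44 and IFI44L on chromosome 1) lie within 100 kb of another member of their cluster and are not independent items. So do RSAD2 and CMPK2 on chromosome 2 and IFITM1, IFITM2 and IFITM3 on chromosome 11. The other members are not independent items either. Library a was above b for 43 of the 44 in delta-conserved, 1 with the conserved region, 9 with SLNCR1 and 19 with vector. Summed leukocyte markers (10 genes) were at 272 to 333 normalized counts with vector, 249 to 284 with SLNCR1, 314 to 338 with the conserved region and 252 to 254 with delta-conserved. ITGAM was at 75.3 and 60.4, 8.05 and 6.62, 99.8 and 114, and 5.56 and 15.2 in the same order. Without ITGAM, the sum over the other 9 was at 211 to 258 with vector, 240.5 to 277 with SLNCR1, 214 to 224 with the conserved region and 239 to 246 with delta-conserved, so the conserved region was below both other constructs. ITGAX was at 133 and 112 with vector, 127 and 138 in the SLNCR1 group, 93.5 and 115 in that of the conserved region and 139 and 109.9 under delta-conserved. The fibroblast gene COL3A1 was at 53.5 in conserved a and 51.2 and 45.5 in delta-conserved a and b, against 2.0 to 4.42 in the other libraries. COL1A2 was at 37.4 in conserved a and 31.2 and 26.5 in delta-conserved a and b, against 1.01 to 13.3 in the other libraries. COL1A1 was at 276 in conserved a and 248 and 261 in delta-conserved a and b, against 139 to 207 elsewhere. PDGFRB was lower in every construct library (429 to 466) than with vector (498 and 497). LUM was lowest with delta-conserved (43.4 and 30.3), and DCN was at 4.0 to 15.6 throughout. Summed, these 6 fibroblast markers were at 747 to 777 with vector and 699 to 702.5 with SLNCR1. The sum was 669 to 868 with the conserved region and 807 to 842 with delta-conserved. The part of the leukocyte and fibroblast genes in the results was not tested.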

How the data were processed

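Reads were aligned with STAR to hg19, counted with featureCounts and compared with DESeq, per the submitters' processing notes (versions not given in the sources used here). For each construct 1 table was deposited by the authors. The authors' deposited tables hold for each gene a signal (the mean of size-factor-normalized read counts in each group), the ratio of these means as a fold change, its log2 value, and DESeq's p-value and adjusted p-value. Each table was normalized separately. The main calls against vector rest on these adjusted p-values (under 0.05), and calls against vector by limma are named as such.

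Comparisons of constructs with each other needed values per library. Whole reads of both libraries of a group were recovered from the deposited group means, which are averages of whole reads divided by size factors. A single solution was found for all genes, except for 6 genes of the conserved-region group, which were left out. The recovery does not tell which labelled replicate a library is, so the library with more reads is called a. The reads of all 8 libraries were scaled by median-of-ratios size factors, and log2(normalized count + 1) of 16064 genes with a mean of at least 10 was fitted in R 4.3.3 with limma 3.58.1 (4 groups, variance trend, Benjamini-Hochberg adjustment over all genes in each of 6 comparisons). Log2 differences are on that scale, which understates changes of low genes. The recovery and the fit were tested on simulated data. Tables and figures were made with Python 3.11.15, pandas 2.3.3, numpy 2.4.6 and matplotlib 3.10.9. Gene lengths came from GENCODE and promoters from the RefSeq table of GRCh38.p14, neither of which is the build of the alignment, so no coordinate of the study was converted.

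The members and lists were chosen with earlier results of these data known. Values per library are given for the 20 members with the lowest adjusted p over the authors' tables and limma, and for single members that are extremes or stand for a role. Genes of interferon signalling and antigen presentation are named, up to 8, where either test passed, besides the interferon genes themselves.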

Additional observations from a re-analysis of the deposited data

How the results depend on the processing

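Members called in the authors' deposited tables numbered 9, 5 and 8 for SLNCR1, the conserved region and delta-conserved. An adjusted p of 0.1 raised the second count to 8 and the last to 13, and limma on the recovered libraries gave 16, 0 and 25. The cause of these differences was not tested. With limma, leaving out each library in turn gave 2 to 23 calls for SLNCR1 against vector (2 without vector a, 8 without vector b), 0 to 6 for the conserved region against vector (6 without SLNCR1 a, and 6 without SLNCR1 b), and 3 to 29 for delta-conserved against vector (3 without delta-conserved b, 4 without vector a, 15 without vector b). It gave 0 to 11 for SLNCR1 against delta-conserved (11 without SLNCR1 a), 26 to 39 between the conserved region and delta-conserved, and 23 to 37 for SLNCR1 against the conserved region. In these fits the lone library of a group is assumed to vary like the other groups. With only the groups compared in the fit, 15 members were called for the conserved region against vector, where the full fit called none. Shares of all genes called are not given here for this fit or for those without a library. Trimmed-mean scaling, library totals, other pseudocounts, other filters on low values, and the removal of trends on length or GC content, which was chosen after seeing the data, kept the limma counts within 1.5 times.

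The median log2 difference of the members between SLNCR1 and delta-conserved turned from 0.12 to -0.0508 without delta-conserved b, and was 0.2815 without delta-conserved a. Without the library named, the other medians that moved beyond the spread were -0.14 for SLNCR1 against vector (SLNCR1 a), 0.38 for the conserved region against vector (conserved a), -0.17 for delta-conserved against vector (delta-conserved b) and -0.46 for SLNCR1 against the conserved region (SLNCR1 a). For the named members, all 520 values from comparing the conserved region with delta-conserved and with SLNCR1 kept their direction and their side of the threshold. These members were named for a low adjusted p, mostly from these same comparisons. The selection therefore made this outcome likely, and it says nothing of the other members. For the named members against vector, limma in place of DESeq left 36 values on the same side of the threshold. It gained 18 calls and lost 6 (RSAD2, SAMD9, IFI44L, OASL and IFIT2 with the conserved region, and CMPK2 with SLNCR1). No paired analysis was possible because the deposited columns are group means and carry no replicate numbers. With 2 libraries a group, the error of each difference rests on 4 residual degrees of freedom and on the spread of other genes.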
